A study of Gallus gallus with 12 samples.

Results

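The transcripts of normal broiler breast muscle are described here from 6 arrays, those whose phenotype label is normal, out of 12 in the study. The other 6 arrays came from birds with white striping and wooden breast, a disorder of fast-growing chickens in which the fillet hardens and pale lines run along its fibres. Every bird was a Ross 708 chicken, a commercial meat hybrid, labelled male, raised in a single farm flock to a mean live weight of 3.7 kg, and sampled in the Pectoralis major after slaughter. The labels name no age, no agent and no genetic change for either group, nor the criteria by which a breast was graded normal. Each bird gave 1 array, and the normal birds are numbered 1 to 6 in the order of deposition. The values are log2 array signals for 20804 transcript clusters, which are sets of probes laid along 1 transcribed region.

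The Pectoralis major drives the downstroke of the wing and in chickens is built almost wholly of fast glycolytic fibres. Such fibres contract on myosin heavy chains, actin and the fast troponins, release calcium from the sarcoplasmic reticulum, and make most of their ATP in short bouts from phosphocreatine and from glycogen through glycolysis. Many of these proteins come from gene families whose members divide between fast fibres, slow fibres, heart and non-muscle cells, and which member a muscle transcribes is commonly used to describe its fibre type.

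Some of the 6 arrays stood apart from the rest. HINTW, a gene of the W chromosome that in birds is carried by females, was at 8.51, 9.41 and 9.27 in birds 1, 4 and 5 and at 2.83, 2.99 and 2.96 in birds 2, 3 and 6, so 3 arrays labelled male carried W transcripts. A principal component analysis of the 6 normal arrays took in 4478 genes, each with a symbol and a mean of at least 5. HINTW and ATP5F1AW, also W-linked, were among them, so W transcripts enter the scores directly. Component 1 took up 48.6% of the variance and ran from bird 2, with a score of -23.5, to bird 1, with 18.4. Birds 4 and 5 were at 7.2 each, and birds 3 and 6 at -6.7 and -2.6. The birds with W transcripts thus all scored above the others, and what component 1 follows was not tested. Correlations between arrays ran from 0.958 to 0.984 across clusters, and array medians from 4.05 to 4.16. The main counts are given with and without these birds, as are the levels of single genes that rest most on them.

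A named gene here is one with a symbol from the platform's annotation, and 11059 were ranked by their mean over the 6 birds, each by its brightest cluster. A rank orders array signal and not amounts of RNA: clusters differ in their probes, and among 644 genes with more than 1 distinct cluster the brightest and the dimmest cluster differed by a median of 0.99 on the log2 scale. The ranking also misses a large part of the brightest signal, because 61 of the 100 brightest clusters had no symbol listed and 6 had several. Several products known for fast muscle, among them CKM, PYGM, ENO3, ATP2A1, RYR1, MYLPF and MYL1, had no cluster with a single symbol and were not analysed here. Genes given as examples of a group, where they fall outside the naming rule of the processing notes, were chosen after their values were seen.

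The signal was concentrated in few clusters. On the linear scale the 100 brightest clusters held 23.5% ± 0.39 (SD, n = 6 birds) of the summed signal, and the 1000 brightest held 55.8% ± 0.44. The median named gene was at 4.57, the 90th percentile at 6.99, and 54 genes reached a mean of 10. At the lower end 4157 genes, 37.6%, had a mean under 4, a limit set above the 2.99 that HINTW reached in birds without W transcripts. Place 100 was filled at 9.52 and the place after it at 9.50, a gap smaller than the median SD of 0.188 among the top 100, so the edge of that list is not sharp. Without birds 1, 4 and 5 the same list kept 93 of its 100 genes, losing ADSS1, CD81, EEF1A1, ENO1, HACD1, RPL38 and TMSB4X.

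ACTA1, the actin of skeletal muscle thin filaments, had the strongest named signal, from 12.39 in bird 1 to 12.69 in bird 6 with a median of 12.65. Bird 1 lay below the other 5 birds, which spanned 12.61 to 12.69. Next came ND4L, a mitochondrially encoded subunit of complex I, between 12.10 and 12.25 with a median of 12.15. GAPDH, the glycolytic dehydrogenase, followed at 11.85 to 12.26 with a median of 12.15, again lowest in bird 1. COX3, a mitochondrially encoded subunit of cytochrome oxidase, ran from 11.93 to 12.03 with a median of 11.99, and LDHA, which turns pyruvate into lactate, from 11.86 to 12.03 with a median of 11.96. The first 5 places thus held 1 filament protein, 2 enzymes of glycolysis and lactate formation, and 2 mitochondrial transcripts. The means of ND4L and GAPDH, 12.16 and 12.11, differed by less than the SD of 0.14 of GAPDH.

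**Figure D1:**
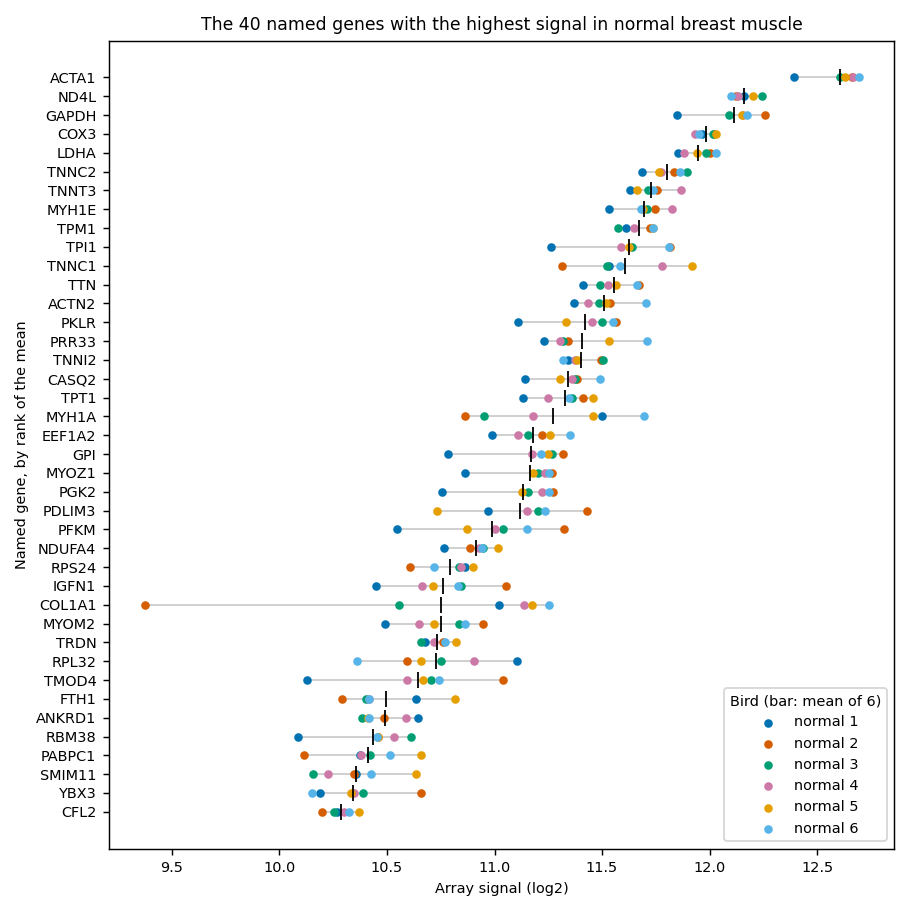
Array signal on the log2 scale (horizontal axis) of the 40 named genes with the highest mean in normal breast muscle (vertical axis, by rank), with 1 coloured point per bird and a black bar at the mean of the 6 birds. Points of most genes lie close together, while bird 2 sits far to the left for COL1A1 at 9.37, and bird 1 is the lowest for ACTA1 at 12.39.

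The thin filament filled more of the top than any other sarcomere list. Of its 14 named members 8 were in the top 100, and the median level of the list was 10.26, against 4.57 for all named genes. TNNC2, the calcium-binding troponin of fast fibres, stood at 11.69 to 11.90 with a median of 11.81. TNNT3, the fast troponin that anchors the complex to tropomyosin, stood at 11.63 to 11.87 with a median of 11.73. TPM1, a tropomyosin that covers the myosin-binding sites of actin, ran from 11.57 to 11.74 with a median of 11.69, and TNNI2, the fast inhibitory troponin, from 11.32 to 11.50 with a median of 11.38. All 4 varied little, each with an SD of 0.08 or 0.07. TMOD4, which caps the slow-growing end of skeletal thin filaments, reached a median of 10.68 between 10.13 in bird 1 and 11.04 in bird 2, and NRAP, a scaffold of filament assembly, had a mean of 9.88.

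Among the troponins the slow member of the calcium-binding pair was nearly as bright as the fast one. TNNC1, the troponin C of slow fibres and heart, ran from 11.31 in bird 2 to 11.92 in bird 5 with a median of 11.56. TNNC2 was above it in 4 of 6 birds and by 0.20 on average, a gap no larger than the SD of 0.21 of TNNC1. The inhibitory pair was different: TNNI1, the slow member, ran from 4.90 in bird 2 to 6.91 in bird 1 with a median of 5.88. TNNI2 lay above TNNI1 by 4.43 to 6.59 in every bird. Troponin T of slow fibres was not analysed here.

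Actins divided in a similar way. ACTC1, the actin of heart and of embryonic skeletal muscle, was at 10.16, 9.99, 9.89 and 9.61 in birds 1, 4, 5 and 6, at 8.36 in bird 3 and at 6.62 in bird 2. The range of more than 3 log2 units set it among the genes that differed most between birds, and ACTA1 still exceeded it in every bird by 2.23 to 6.04. The mean of ACTC1 was 9.11, 9.60 without bird 2 and 8.20 without birds 1, 4 and 5, which moved it from place 150 to place 383. The cytoplasmic actin ACTB had a mean of 8.63 ± 0.43 and ACTG1 a mean of 5.50 ± 0.33, while ACTG2, the smooth muscle form, was at 7.38 ± 0.32.

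Of 14 named thick filament and M-band genes 6 were in the top 100. TTN, the giant spring protein that spans from Z-disc to M-band, ran from 11.41 to 11.67 with a median of 11.55. MYOM2, which crosslinks thick filaments at the M-band of fast fibres, ran from 10.49 to 10.95 with a median of 10.78, above MYOM1 by 0.53 to 1.03 in every bird. A further myomesin, MYOM3, was far dimmer and uneven, at 6.07 in bird 1, 5.73 in bird 4, 4.83 in bird 5, 4.08 in bird 3, 3.58 in bird 6 and 3.13 in bird 2. The birds with W transcripts were the higher ones for MYOM3. Of the 4478 named genes with a mean of at least 5, 6.5% had that order. MYOM3, with a mean of 4.57, lies outside that set.

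Myosin heavy chains are the motors of the thick filament. Of 12 named members, MYH1E was first with values from 11.53 to 11.83 and a median of 11.70, and MYH1A second with 10.86 to 11.69 and a median of 11.32. MYH1E was higher in 5 of 6 birds, by 0.42 on average, and in bird 6 the pair differed by 0.01. Both are fast skeletal genes of the cluster on chromosome 18, whose members are close in sequence, and how far their probes share signal was not tested. MYH1C, another gene of that cluster, came next at 10.55, 8.71, 10.71, 10.29, 10.13 and 11.19 in birds 1 to 6. Bird 2 was the low one, and without it the mean of MYH1C moved from 10.26 ± 0.84 (SD, n = 6) to 10.57 ± 0.41 (n = 5).

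The remaining fast skeletal myosins were much dimmer. MYH1G ran from 6.37 to 7.83 with a median of 6.77. MYH1D ran from 5.15 in bird 2 to 8.09 in bird 4 with a median of 6.64, and MYH1B from 4.32 in bird 2 to 7.12 in bird 1 with a median of 5.80. For MYH1D the birds with W transcripts, at 7.75, 8.09 and 7.39, all lay above the others, at 5.15, 5.67 and 5.90. The same order was found in 6.5% of the 4478 named genes with a mean of at least 5. MYH15, a myosin known in chickens as a ventricular and slow chain, was at 6.02, 5.14 and 5.05 in those same birds 1, 4 and 5 and at 2.95, 2.97 and 3.33 in birds 2, 3 and 6. The groups do not overlap, and the mean of MYH15 over the birds without W transcripts was 3.08, close to the HINTW level there. With a mean of 4.24 over all 6 birds, MYH15 lies outside the set for which the share of such genes was counted. MYH7, the slow and cardiac chain, was even at 4.51 to 4.94 with a median of 4.76, and MYH13, a chain of eye muscles in mammals, was at 2.92 to 3.28.

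Non-muscle and smooth muscle myosins sat between these. MYH9, the main non-muscle myosin, ran from 7.51 to 8.30 with a median of 7.88, MYH10 from 5.13 to 5.96 with a median of 5.51, and MYH11, the smooth muscle form, from 5.08 to 5.46 with a median of 5.24. MYH9 was thus brighter than MYH1G in means, 7.89 against 6.92, and the ranges of the pair overlapped. Of the light chains only dim or non-skeletal members had a name here. MYL9, a regulatory chain of smooth muscle and non-muscle cells, ran from 6.51 to 7.66 with a median of 7.20, the slow chain MYL2 from 3.50 to 4.03 with a median of 3.75, and the atrial and embryonic chain MYL4 from 3.45 to 3.97 with a median of 3.56. MYL3, the slow essential chain, was between 1.74 and 2.0 in 5 birds and at 4.61 in bird 3.

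Myosin-binding proteins showed no steady leader. MYBPHL ran from 8.80 to 9.53 with a median of 9.0, and MYBPC1, the slow form of myosin-binding protein C, from 7.93 in bird 5 to 10.03 in bird 1 with a median of 8.97. Each was the higher of the pair in 3 of 6 birds. Without bird 2, bird 3 or bird 5 MYBPC1 came first.

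**Figure D2:**
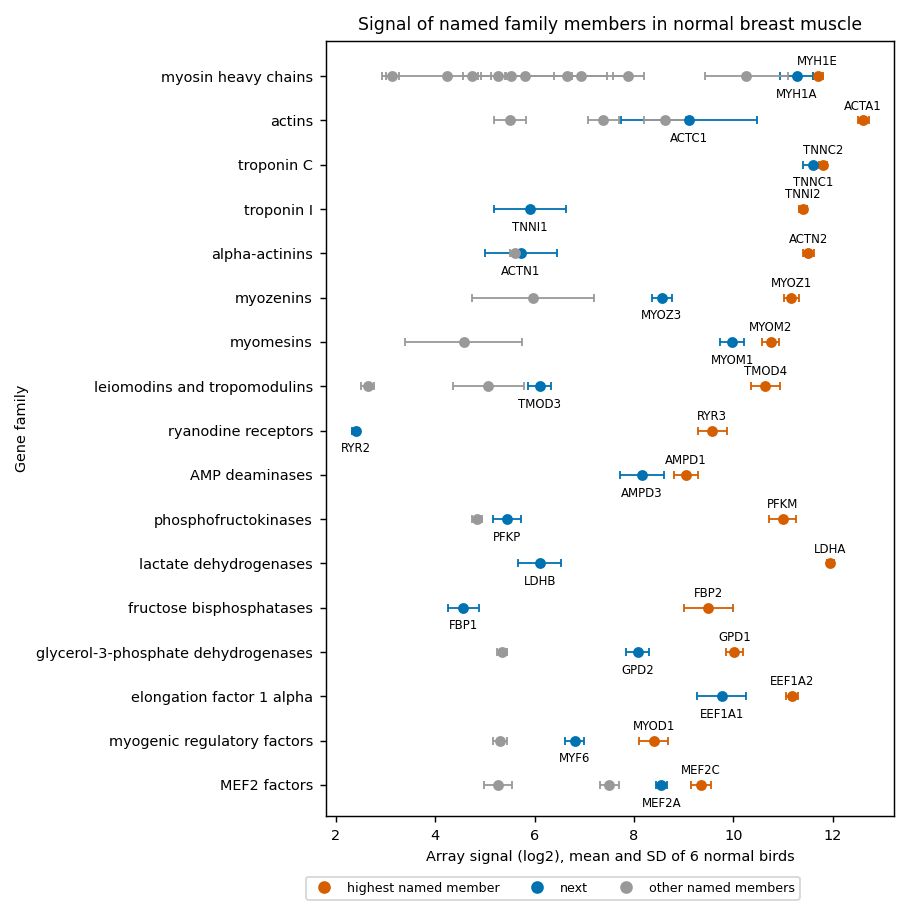
Mean array signal on the log2 scale (horizontal axis) of the named members of selected gene families (vertical axis), with bars of 1 SD over the 6 normal birds, the brightest member in orange, the next in blue and others in grey. ACTN2, LDHA, PFKM and TNNI2 stand far to the right of their nearest relatives, while TNNC2 and TNNC1 lie side by side at 11.80 and 11.61.

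Z-disc and costamere genes had 7 of 21 named members in the top 100 and a median level of 8.56. ACTN2, the actinin that crosslinks thin filaments at the Z-disc, ran from 11.37 to 11.70 with a median of 11.50, and its relatives ACTN1 and ACTN4, which serve non-muscle cells, had means of 5.73 and 5.60. ACTN2 was above ACTN1 by 5.0 to 6.98 in every bird. MYOZ1, a calcineurin-binding Z-disc protein of fast fibres, ran from 10.86 in bird 1 to 11.27 with a median of 11.22, and MYOZ3 from 8.32 to 8.89 with a median of 8.51. MYOZ2, the member typical of slow fibres and heart, was spread from 3.95 in bird 2 to 7.65 in bird 1 with a median of 5.92. PDLIM3, an actinin-binding LIM protein, ran from 10.73 to 11.43 with a median of 11.18, and ANKRD1, a stretch-responsive protein of the titin I-band, from 10.38 to 10.64 with a median of 10.45. Among the muscle LIM proteins no member was bright: CSRP1 had a mean of 5.67 ± 0.13 and CSRP3 of 5.55 ± 0.95, and CSRP3 was the higher one in 4 of 6 birds.

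Other filament-associated genes of the top 40 belong to none of the lists. PRR33, a proline-rich muscle protein, ran from 11.23 to 11.71 with a median of 11.33. IGFN1, an immunoglobulin-domain protein of the Z-disc region, ran from 10.45 to 11.05 with a median of 10.77, and CFL2, the muscle cofilin that trims actin filaments, from 10.20 to 10.37 with a median of 10.28. CFL2 was among the steadiest genes of the top 100, with an SD of 0.06.

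In the calcium release and uptake list 4 of 13 named members were in the top 100. CASQ2, a calcium-storing protein of the sarcoplasmic reticulum that in mammals marks slow fibres and heart, ran from 11.14 to 11.49 with a median of 11.37, and CASQ1 was not analysed here. TRDN, which ties calsequestrin to the release channel, ran from 10.66 to 10.82 with a median of 10.74 and an SD of 0.06. RYR3, one of the release channels that chicken skeletal muscle uses, ran from 9.12 to 10.01 with a median of 9.53, and RYR2, the cardiac channel, from 2.29 to 2.49 with a median of 2.38. RYR3 had an SD of 0.30 and CASQ2 one of 0.12. CACNA1S, the voltage sensor of skeletal muscle, was the brightest of 7 named calcium channel subunits at 7.35 to 8.45 with a median of 7.91, and the next, CACNA1G, had a mean of 3.96. ATP2A2, the slow and cardiac calcium pump, ran from 5.12 in bird 2 to 6.88 in bird 1 with a median of 6.35. PVALB, the soluble calcium buffer of fast mammalian fibres, had a mean of only 4.36 ± 0.44.

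Excitability genes followed the skeletal pattern at lower levels. SCN4A, the sodium channel of skeletal muscle, ran from 6.57 to 7.58 with a median of 7.07, and the next of its family, SCN8A, was at 2.69 ± 0.20. CLCN1, the chloride channel of the muscle membrane, ran from 5.46 to 6.19 with a median of 5.83. CLCN1 led CLCN5 in all 6 birds but by as little as 0.05. The junctophilins, which hold the surface tubules near the reticulum, gave JPH2 a mean of 6.85 and JPH3 a mean of 6.61, with JPH2 higher in 4 of 6 birds.

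Of 15 named members of the glycolysis list, which also holds GPD1 and FBP2, 7 were in the top 100, GPD1 among them. The median level was 9.49, that of FBP2, and the highest among the lists of nuclear metabolic genes. TPI1, the triose phosphate isomerase, ran from 11.26 in bird 1 to 11.82 with a median of 11.63, and GPI, the glucose phosphate isomerase, from 10.79 in bird 1 to 11.32 with a median of 11.23. PFKM, the muscle phosphofructokinase and the main control point of the pathway, ran from 10.55 in bird 1 to 11.32 in bird 2 with a median of 11.02. Bird 1 was the lowest for all of these, and the list as a whole was 0.13 below the mean of the birds there. Further transcripts of the pathway, outside the list as matched by symbol, were an entry the gene table names PKLR with PKM as a synonym, at 11.11 to 11.57 with a median of 11.48, and one it names PGK2 with PGK1 as a synonym, at 10.76 to 11.27 with a median of 11.19. GPD1 of the list, the cytosolic glycerol phosphate dehydrogenase, ran from 9.73 to 10.20 with a median of 10.03. BPGM, of the phosphoglycerate mutase family and outside the list, ran from 9.58 to 10.39 with a median of 10.23.

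In the families of lactate dehydrogenase, phosphofructokinase and fructose bisphosphatase the member known from muscle led. LDHA exceeded LDHB, the heart form, by 5.38 to 6.68 in every bird. PFKM exceeded PFKP, the platelet form, by 4.75 to 6.29, and FBP2, the muscle fructose bisphosphatase, exceeded FBP1, the liver form, by 4.17 to 5.72. FBP2 is Z-linked and ran from 8.86 to 10.09, with birds 1, 4 and 5 at 8.86, 9.13 and 9.21 all below birds 2, 3 and 6 at 9.90, 9.76 and 10.09. The same non-overlap in that direction was found for 585 of the 4478 named genes with a mean of at least 5, or 13.1%. AK3, an adenylate kinase gene also on Z, had the opposite order. It was at 8.10, 8.25 and 8.0 in birds 1, 4 and 5 and at 7.53, 7.49 and 7.70 in birds 2, 3 and 6. The share among Z-linked genes was not counted. HK1 led the named hexokinases at 8.66 to 9.01 with a median of 8.89. ENO1 led the named enolases at 9.30 to 9.63 with a median of 9.57, while the muscle enolase was not analysed here. Glucose transporters were all dim, SLC2A12 being highest at 4.89 to 5.66 with a median of 5.05.

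Glycogen and purine nucleotide genes stood one step lower. Of 19 named glycogen genes 2 were in the top 100, PHKB at 9.80 ± 0.36 and PHKG1 at 9.53 ± 0.31, both subunits of the kinase that switches on glycogen phosphorylase. The regulatory subunits PPP1R3A, which targets a phosphatase to glycogen in muscle, and PRKAG3, the AMP kinase subunit of fast fibres, had means of 9.31 ± 0.28 and 8.18 ± 0.29. The liver genes PYGL and GYS2 were at 5.25 and 2.28. In the creatine and purine list 1 of 12 named members was in the top 100, ADSS1 at 9.59 ± 0.18, the muscle enzyme of the purine nucleotide cycle. AMPD1, the fast-fibre AMP deaminase of the same cycle, ran from 8.60 to 9.28 with a median of 9.09, above AMPD3, at 7.64 to 8.93 with a median of 8.04, in all 6 birds. SLC6A8, the creatine transporter, had a mean of 9.37 ± 0.56 and was lowest in bird 1 at 8.39.

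By each gene's brightest cluster, mitochondrial transcripts fell into a bright set from the organelle's own genome and a moderate set from the nucleus. The 3 named mitochondrially encoded genes were all in the top 100, ND4L and COX3 as above and ND6, another complex I subunit, at 9.56 to 10.16 with a median of 10.08. ND4L had 11 clusters whose means ran from 2.36 to 12.16, so its place depends on taking the brightest. The other cluster of ND6 had a mean of 2.08. Both ND4L and ND6 left the top 100 when a gene's clusters were averaged, while COX3 stayed. The clusters of COX3 had means of 11.98, 11.36 and 5.16, so its place near the top also depends on taking the brightest. Of 46 named nuclear respiratory chain genes 3 were in the top 100 and the median was 7.40. NDUFA4, a subunit of cytochrome oxidase once assigned to complex I, was highest at 10.77 to 11.01 with a median of 10.94, followed by COX7B at 9.92 ± 0.12 and ATP5B at 9.69 ± 0.27. For the citric acid cycle 1 of 18 named genes was in the top 100, MDH2 at 9.23 to 9.77 with a median of 9.72, and the median was 7.59. SLC25A4, the ADP/ATP carrier of muscle, led SLC25A6 in all birds, with medians of 9.68 and 8.26, and VDAC1, a pore of the outer membrane, had a median of 8.81.

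No gene of fatty acid oxidation and uptake was in the top 100, of 29 named, and their median level was 6.03. FABP3, the muscle and heart fatty acid binding protein, was highest at 7.80 to 8.42 with a median of 8.10. HADH, ACADL and HADHA, enzymes of beta-oxidation, had means of 8.04, 7.76 and 7.60. PDK4, the kinase that shuts pyruvate out of the citric acid cycle in fasting, was the uneven one of the list at 6.43, 9.19, 8.68, 7.20, 6.82 and 6.97 in birds 1 to 6, with birds 2 and 3 far above the others. MB, the oxygen-binding protein of red muscle, had a mean of 4.75 ± 0.76, near the median of all named genes.

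Protein synthesis supplied more genes of the top 100 than any other list, 16 of 58 named, with a median level of 9.02. TPT1, a growth-related partner of the elongation machinery, ran from 11.13 to 11.46 with a median of 11.35. Its other cluster was at 5.95, and TPT1 left the top 100 when a gene's clusters were averaged, as RPL9 and RPL23 did. EEF1A2, the elongation factor of muscle and neurons, ran from 10.99 to 11.35 with a median of 11.19. EEF1A2 was above EEF1A1, the form of most other cells, by 0.85 to 2.39 in every bird, and EEF1A1 was low in bird 2 at 8.83 against 9.68 to 10.17 elsewhere. RPS24 ran from 10.61 to 10.90 with a median of 10.84, and RPL32 from 10.36 to 11.10 with a median of 10.71. RPL3L, the ribosomal protein that takes the place of RPL3 in striated muscle of mammals, was at 9.79 ± 0.33 against 7.51 ± 0.41 for RPL3. Genes of RNA binding in the top 40 included RBM38, from 10.08 in bird 1 to 10.61 with a median of 10.46, and YBX3, from 10.15 to 10.66 with a median of 10.34.

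Protein quality control was less bright. Of 24 named chaperones 3 were in the top 100, HSPB1, a small chaperone of the sarcomere, at 9.91 to 10.51 with a median of 10.19, BAG3, its partner in clearing damaged filament proteins, at 9.78 ± 0.22, and HSPA2, an HSP70, at 9.15 in bird 1 to 10.03 with a median of 9.82. HSPA8, the constitutive HSP70, ran from 8.78 to 9.89 with a median of 9.43 and was above HSPA2 in 2 of 6 birds. Of 24 proteasome and ubiquitin genes 1 was in the top 100, PSMA1 at 9.57 ± 0.18. The muscle ubiquitin ligases TRIM55 and TRIM63 were close to each other, at medians of 7.59 and 7.37, and FBXO32, the ligase known for muscle wasting, was at a median of 6.23. FTH1, the iron-storing ferritin chain, ran from 10.29 to 10.82 with a median of 10.42.

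Taking all families together, 41 of 51 listed had at least 2 named members. In 31 of the 41 the member with the highest mean was above the next in all 6 birds, in 24 it led by at least 1 log2 unit on average and in 17 by at least 2, and 19 of the leaders were in the top 100. In 17 families the gap was under 1, which is about the median difference between clusters of a single gene. Without birds 1, 4 and 5, 40 of the 41 leaders were kept, the exception being the list headed parvalbumins, where PVALB passed CALB2. That list set PVALB beside CALB2 and CALB1, which are not parvalbumins. It did not hold OCM3, of the parvalbumin family, whose mean of 5.05 was above those of CALB2, 4.45, and PVALB, 4.36.

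The transcription factors of muscle identity given here spread widely in rank among the named genes. MEF2C was at place 118, MEF2A at 266, MYOD1 at 306, MYF6 at 1309 and MYOG at 3777. MYOD1 ran from 8.09 to 8.93 with a median of 8.33, MYF6, the factor of mature fibres in mammals, from 6.62 to 7.16 with a median of 6.78, and MYOG, the differentiation factor, from 5.15 to 5.53 with a median of 5.29. MYOD1 was above MYF6 in every bird by 1.16 or more. MEF2C ran from 9.13 to 9.67 with a median of 9.34 and MEF2A from 8.39 to 8.64 with a median of 8.62, and MEF2C led in every bird.

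The labelled tissue was set against marker lists. Of 8 named fast fibre markers 6 were in the top 100, and the exceptions were MYH1B and PVALB. Of 5 named slow fibre markers only TNNC1 was in the top 100, and the others, TNNI1, MYH7, MYL2 and MYL3, had means of 5.90, 4.73, 3.73 and 2.34. In whole tissue, fewer cells of a type and less RNA per cell cannot be told apart. COL1A1, a chain of the main fibrillar collagen made by fibroblasts, was the only gene of the non-muscle marker lists in the top 100, at 11.02, 9.37, 10.56, 11.14, 11.17 and 11.25 in birds 1 to 6. Its mean of 10.75 ± 0.72 (n = 6) became 11.03 ± 0.28 (n = 5) without bird 2. The highest markers of other cells were CD74, the invariant chain of antigen-presenting cells, at 7.74 to 9.49, CDH5, the endothelial cadherin, at 7.11 to 7.94, ADIPOQ, made by adipocytes, at 6.64 to 7.46, HBAD, an avian alpha-type globin, at 5.99 to 7.02, and PAX7, of satellite cells, at 5.55 to 6.01. SOX10 and S100B, of Schwann cells, were at 3.01 and 2.37, so PMP22 at 7.57 was the one bright gene of that list.

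Spread between birds was small for most genes. The median SD was 0.189 over the 11059 named genes and 0.188 in the top 100. By level, it was 0.154 for genes with a mean from 1 to 4, 0.234 from 7 to 9 and 0.117 for the 24 genes above 11. Of the 4478 genes with a mean of at least 5, whose median SD was 0.224, 27 had an SD of at least 1. The members just inside that limit were LGALS1A at 1.01 and COMP at 1.005, and just outside it lay F13A1 and FN1, both at 0.99. The count rested on few birds. It was 11 without bird 2, of which 10 were among the 27, and 47 when only birds 2, 3 and 6 were used, of which 18 were among the 27. No repeat arrays of a bird exist among these samples, so these SDs hold technical as well as biological spread.

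**Figure D3:**
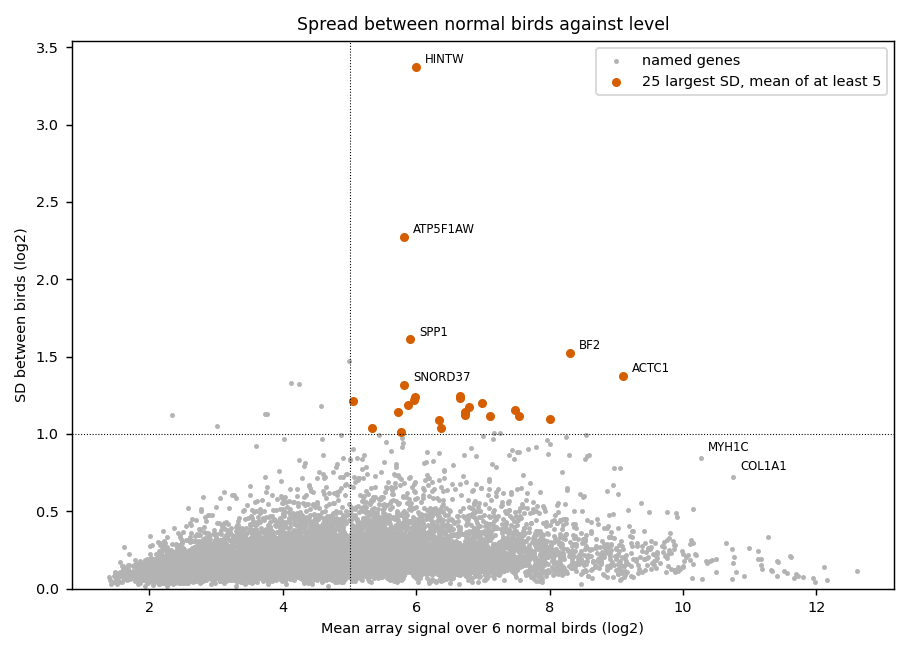
SD between the 6 normal birds (vertical axis, log2) against the mean signal (horizontal axis, log2) for 11059 named genes, with the 25 genes of largest SD and a mean of at least 5 in orange, and dotted lines at a mean of 5 and an SD of 1. HINTW and ATP5F1AW stand highest with SDs of 3.37 and 2.27, and the brightest genes at the right lie low.

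The steadiest genes of the top 100 were COX3, ND4L, CFL2, TRDN and LDHA, with SDs of 0.04, 0.06, 0.06, 0.06 and 0.07. Their whole ranges over 6 birds were under 0.2 log2 units. For comparison, the median SD was 0.117 among genes with a mean above 11, where COX3, ND4L and LDHA lie, and 0.204 from 9 to 11, where CFL2 and TRDN lie.

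Of the 25 genes with the largest SD, the first 2 were W-linked, HINTW and ATP5F1AW, the W copy of an ATP synthase subunit, at 7.82, 4.11, 3.36, 7.68, 8.11 and 3.79 in birds 1 to 6. Birds 1, 4 and 5 were told apart by HINTW itself, so HINTW had to differ between them and the rest. ATP5F1AW was not used for that split, and was at 7.68 to 8.11 in these birds and 3.36 to 4.11 in the rest. Of the other 23 genes, 5 were higher in all of birds 1, 4 and 5 than in any of birds 2, 3 and 6, and 1, PDE10A, was lower. Among the 4478 genes these patterns were found in 6.5% and 13.1%, and nothing is read from the difference, since the 25 were picked for their spread in these birds. The 5 were SPP1, ACTC1, MXRA8, MYH1D and OCM3. SPP1, the secreted matrix protein osteopontin, was at 7.69, 4.11, 4.83, 6.28, 7.86 and 4.69. MXRA8, a matrix-associated membrane protein, was at 8.18, 4.94, 5.37, 7.30, 7.23 and 6.90, and OCM3, of the parvalbumin family, at 5.76, 3.36, 4.11, 5.89, 6.53 and 4.63. For MXRA8 the groups nearly met, with bird 6 at 6.90 and bird 5 at 7.23.

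Bird 2 was the lowest in 16 of the 25 genes, and in 73 of the 100 genes with the largest SD. Over all 4478 genes bird 2 was the lowest in 19.3% and the highest in 28.7%, and bird 1 was the lowest most often, in 41.1%. Of the 25 genes 14 stayed among the 25 of largest SD without bird 2, and 12 without birds 1, 4 and 5. The examples that follow are genes of the 25 for which bird 2 was lowest. LUM, a proteoglycan that spaces collagen fibrils, was at 8.0, 5.18, 7.55, 7.82, 8.07 and 8.28, and POSTN, a matrix protein of active fibroblasts, at 8.31, 5.90, 7.77, 8.50, 8.74 and 8.80. For both genes bird 2 lay apart from the other 5 birds, and without it their SDs went from 1.16 to 0.28 for LUM and from 1.09 to 0.41 for POSTN. TNC, a matrix glycoprotein, spanned 3.65 to 6.77, FNDC1 3.63 to 6.88, ABI3BP 4.67 to 7.92 and CHAD, a cartilage-type matrix protein, 5.03 to 7.90, each with bird 2 at the lowest value. LY86, of myeloid and B cells, was at 4.56 in bird 2 and 7.26 to 7.71 elsewhere, with an SD of 1.20 that became 0.18 without bird 2. FGL2, secreted by macrophages and T cells, was at 3.51 against 5.84 to 6.71, and PTPRC, the pan-leukocyte CD45, at 3.32 against 5.36 to 6.09. Other leukocyte markers did not all have that order: CD8A and CD3D, of T cells, were lowest in bird 4, at 4.17 and 4.0, with bird 2 at 4.58 and 4.05.

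Not all variable genes followed bird 2. BF2, a major histocompatibility class I gene that is highly polymorphic in chickens, was at 5.20 in bird 5 and at 8.78 to 9.11 in the other 5 birds. CA3A, a carbonic anhydrase of muscle, was at 8.34, 6.01, 7.91, 7.17, 5.53 and 7.72, low in birds 2 and 5. PDE10A, a cyclic nucleotide phosphodiesterase, was at 4.67, 7.91, 7.0, 6.25, 5.82 and 6.36, and AGTPBP1, which trims glutamates from tubulin, at 4.53, 7.08, 6.71, 6.04, 5.35 and 4.92. Both were highest in bird 2 and lowest in bird 1, as PDK4 was. EPB41L4A, a membrane skeleton protein, was at 7.47, 7.39, 6.87, 5.84, 4.89 and 5.72. Small RNAs were also in the list. SNORD37, a nucleolar guide RNA, was at 7.46, 6.94, 6.45, 5.18, 4.65 and 4.22 in birds 1 to 6, with a median of 5.82. Its values fell in the order of deposition, and a part of array order was not tested. A microRNA locus, gga-mir-3538, was at 7.92, 7.36, 7.13, 5.70, 7.29 and 4.96, with a median of 7.21.

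**Figure D4:**
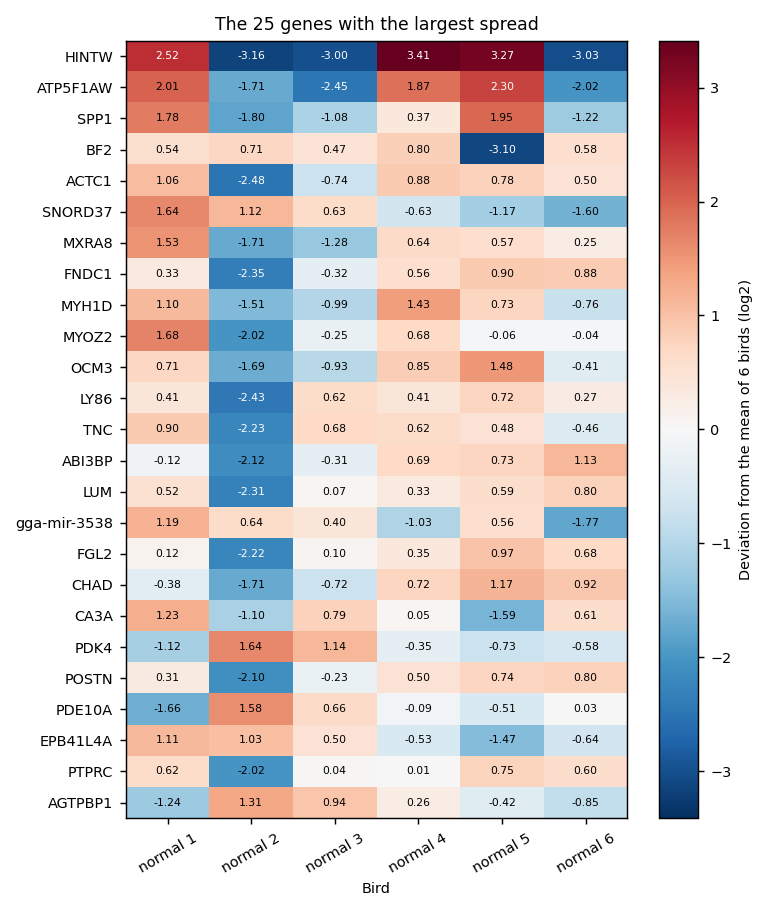
Deviation of each of 25 genes (rows, by SD) from its mean over the 6 normal birds, in log2 units by colour and printed in each cell, with 1 column per bird. Bird 2 is the lowest in 16 of the 25 rows, HINTW and ATP5F1AW are red in birds 1, 4 and 5, and BF2 is low in bird 5 alone at 3.10 below its mean.

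The lists taken whole show the same birds, in part through the same genes. LUM and POSTN of the fibroblast markers and PTPRC of the leukocyte markers had been picked for their large SD. List means without such genes were not computed. The fibroblast markers not so picked, COL1A1, COL1A2, PDGFRA and DPT, were also lowest in bird 2. Of the leukocyte markers not so picked, all but CD8A and CD3D were lowest in bird 2. Extracellular matrix genes had a median SD of 0.55 over 22 named members, and 21 of them exceeded 0.224, the median SD of genes with a mean of at least 5. Their mean deviation was -0.997 in bird 2 and -0.01 to 0.44 in the others. The 6 named fibroblast markers were at -1.71 in bird 2 and 0.79 in bird 6, and the 10 named leukocyte markers at -0.93 in bird 2 and -0.08 to 0.46 elsewhere. Slow fibre genes had a median SD of 0.70 over 14 named members, with mean deviations of -0.80 in bird 2, -0.27 in bird 6 and 0.14 to 0.45 in the others. The shorter list of 5 named slow fibre markers was at 0.16, -0.37, 0.54, 0.06, -0.13 and -0.26 in birds 1 to 6. The 8 named fast fibre markers stayed between -0.16, in bird 2, and 0.14, in bird 6. Proteasome genes ran the other way, at 0.32 in bird 2 and -0.34 in bird 1, and citric acid cycle genes were at 0.16 in bird 2 and -0.37 in bird 1. The part that fibroblast and leukocyte transcripts play in the low values of bird 2 was not tested.

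**Figure D5:**
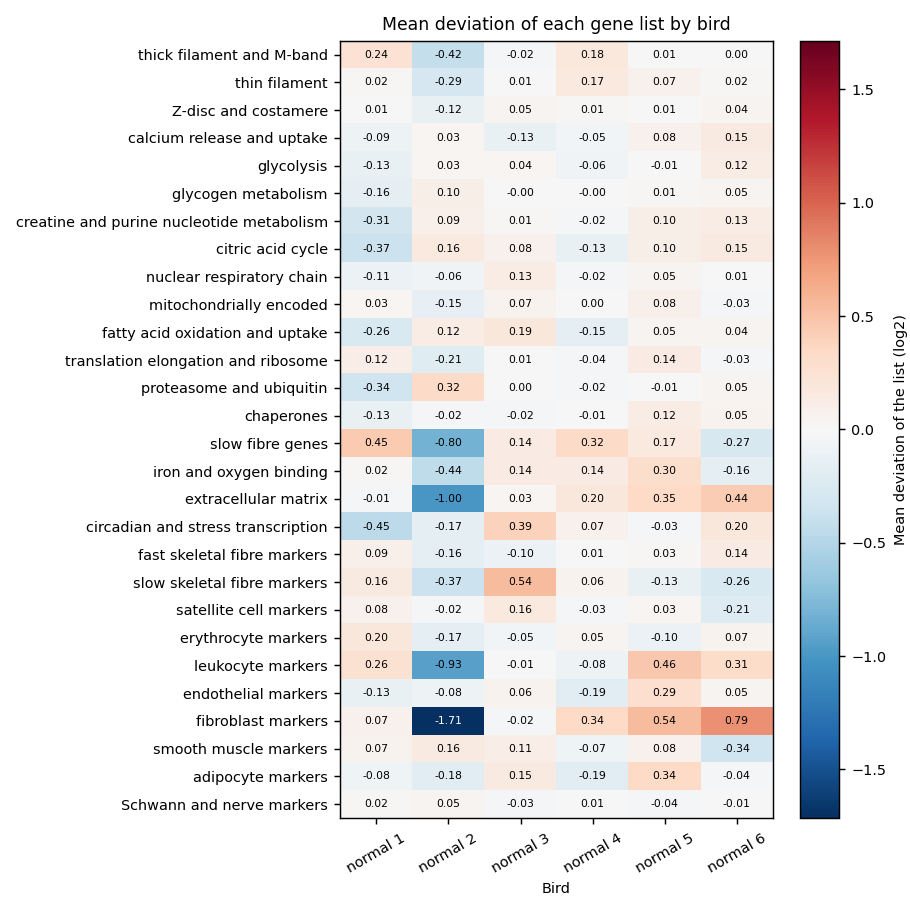
Mean deviation from the 6-bird mean, in log2 units by colour and printed in each cell, of the named members of each gene list and marker list other than the W-linked list (rows) in each normal bird (columns). Fibroblast markers at -1.71 and extracellular matrix at -0.997 in bird 2 are the lowest values shown, and most lists of fibre and energy genes stay within 0.4 of 0.

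Few of the bright genes of normal muscle passed a test against the affected birds, as was the case for clusters in general. With limma over all 20804 clusters and Benjamini-Hochberg adjustment, 2 of the top 100 passed at 0.05, against 1.14% of all clusters. HINTW averaged 2.59 and reached at most 2.71 in the affected arrays, so W transcripts were found in normal arrays only. Over all arrays, a difference that goes with W transcripts cannot be fully told apart from one that goes with the disorder. PABPC1, the poly(A)-binding protein, ran from 10.11 to 10.66 in normal birds with a median of 10.40, and was higher in affected birds by 0.52 ± 0.09 (SE, limma adjusted p = 0.0321), with group means of 10.41 and 10.93. TOB1, an antiproliferative regulator of mRNA decay, ran from 9.37 to 9.99 with a median of 9.76, and differed by -0.66 ± 0.13 (limma adjusted p = 0.0389), with means of 9.72 in normal and 9.07 in affected birds. Without normal birds 1, 4 and 5 neither passed in limma's fit, with differences of 0.58 and -0.79 and adjusted p of 0.0857 and 0.0822. Before adjustment, 31 of the 100 genes had a p under 0.05, against 22.1% of all clusters. The median difference of the top 100 was -0.05, against -0.03 for all clusters. COL1A1 and MYH1C, at places 29 and 41 in normal muscle, were at 7 and 12 in affected muscle, and their differences of 0.93 and 1.25 did not pass (limma adjusted p of 0.111 and 0.0601). ACTA1 was first in both groups, with means of 12.61 and 12.64.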

How the data were processed

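Total RNA from breast muscle was hybridised to Affymetrix whole-transcript arrays, 1 per bird, per the labels' protocols. The log2 values deposited by the authors were used as given; the log base was inferred from their range, the submitters' processing notes name Partek, and nothing read here states the background correction, scaling, summarization or genome build. Of 20804 clusters, 12300 had 1 symbol, 256 several and 8248 none listed; symbols were updated through Entrez IDs (11727 matched) in a gene table of assembly GRCg7b. Exactly repeated rows numbered 895 and were kept in the sums of signal, the counts of bright clusters and the limma fit. A gene with more than 1 cluster (612 of the 11059 ranked) took its brightest over the normal arrays, and 469 placeholder symbols were left out.

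Levels, ranks, families and SDs of the 6 normal arrays are descriptions with no test (Python 3.11.15, pandas 2.3.3). Arrays with HINTW above 6 were taken to carry W transcripts. The affected-minus-normal differences came from limma 3.58.1 in R 4.3.3 over all clusters and 12 arrays (10 residual and 3.39 prior degrees of freedom, two-sided, threshold 0.05), tested on simulated data. The labels give no scan or extraction batch, and the number of arrays limits the precision. Members, lists and tests were chosen with earlier results of these data known. Named were the 40 brightest genes, the 2 brightest members of each family and all myosin heavy chains, the 25 genes of largest SD with a mean of at least 5, the 5 steadiest of the top 100, the highest marker of each list, and genes of the top 100 that passed. Alternatives were other scalings, gene summaries and level filters, the median, other variance settings and leaving out arrays.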

Additional observations from a re-analysis of the deposited data

Results flagged for a closer look

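Of 150 named genes, 20 (13.3%) had a normal bird far outside the other 5 by Dixon's ratio, where chance flags about 1 in 20. Of these genes 25 had been picked for their large SD in the same birds and gave 7 of the flags, so their share says nothing against chance, and 13 of the other 125 (10.4%) were flagged. Genes are not independent, and these flags are given as values only. Bird 2 gave 10 of the 20 and bird 1 gave 6.

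Bird 2 was far below the others for COL1A1 (9.37), POSTN (5.90), LUM (5.18) and FNDC1 (3.63), which are matrix genes, for LY86 (4.56), FGL2 (3.51) and PTPRC (3.32) of immune cells, and for PMP22 (7.23), EEF1A1 (8.83) and SLC25A6 (7.16). In all 10 genes it was the lowest bird.

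Bird 1 was far below the others for ACTA1 (12.39), GPI (10.79), PGK2 (10.76), MYOZ1 (10.86), RBM38 (10.08) and HSPA2 (9.15). ACTA1 and MYOZ1 are sarcomere genes, GPI and PGK2 glycolytic, RBM38 an RNA-binding protein and HSPA2 a chaperone. In log2 units ACTA1 was at 12.61 to 12.69 in the other birds and GPI at 11.17 to 11.32.

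Single birds were apart in 4 more genes. BF2 was at 5.20 in bird 5 against 8.78 to 9.11, MYL3 at 4.61 in bird 3 against 1.74 to 2.0, TMOD3 at 6.56 in bird 5 against 5.94 to 6.09, and MYF6 at 7.16 in bird 4 against 6.62 to 6.79.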

How the results depend on the processing

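Median centring and quantile normalization kept all 100 top genes and all 41 family leaders. Leaving out 1 normal bird kept 97 to 99 and 39 to 41, and averaging a gene's clusters kept 92 and 41. Leaders changed only among myosin-binding proteins, muscle LIM proteins and the list headed parvalbumins. Of 150 named levels 10 moved by more than their SD with that average, and none under the other scalings. Leaving out birds or taking the median cannot move a mean by its full SD, so that rule says nothing on those settings. HINTW went from 5.99 to 2.93 without the arrays with W transcripts and was not counted as moved.

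The count of 27 genes with an SD of at least 1 ran from 11 to 40 without 1 normal bird, 11 being without bird 2. It was 47 without the arrays with W transcripts and 8 for genes with a mean of at least 7.

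The 2 top genes past limma's test became 0 to 4 without 1 bird: 0 without normal birds 3 or 4 or affected birds 2, 3, 4 or 6, 1 without normal bird 1, and 4 without normal bird 6 or affected bird 1. It was 1 after quantile normalization, 0 without the arrays with W transcripts, 5 with clusters above the median level only, where fewer are tested, and 1 with a gene's clusters averaged. The number that passed among all clusters moved too. It was 238 of 20804 in the main fit, 588 without affected bird 1, 437 without normal bird 6 and 455 of 10402 above the median level. Where limma gave 0 of the top genes, from 1 to 59 of the 20804 clusters passed. In those settings from 23 to 32 of the 100 had an unadjusted p under 0.05. PABPC1 and TOB1 passed in 9 of 18 alternatives each, with adjusted p of 0.0219 to 0.0887 and 0.0239 to 0.093. The cause was not tested. Probe design limits every comparison of levels between genes.

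No paired analysis was possible because the labels give the groups no shared replicate numbers.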

Other observations

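Genes of circadian and stress transcription, which the sections above leave out, were uneven. None of 17 named members was in the top 100, and the median level was 6.25, against 4.57 for all named genes. Their mean deviation ran from -0.45 in bird 1 to 0.39 in bird 3. ATF3, a stress-induced factor, was at 7.12, 8.31, 9.05, 8.76, 8.44 and 9.66 in birds 1 to 6, and BTG2, an early response gene, at 7.22, 8.45, 8.87, 8.50, 7.75 and 8.79. NR4A3, an exercise-induced nuclear receptor, ran from 5.20 in bird 2 to 7.29 in bird 3. PER2, of the circadian clock, ran from 5.10 in bird 1 to 6.63 in bird 3. These genes were chosen after their values were seen, and the labels state no time of slaughter.

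The brightest cluster of all had a mean of 12.78, above ACTA1, and no symbol listed. Of the 10 brightest clusters 9 had none.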
